A study of Mus musculus with 7 samples.

Results

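The genes described here encode 10 transcription factors of oocyte growth, chosen by name. They were 6 sequence-specific factors (Figla, Nobox, Sohlh1, Sohlh2, Lhx8 and Stat3) and 4 genes for general transcription proteins that are found or enriched in oocytes or germ cells (Tbpl2, Taf4b, Taf7l and Gtf2a1). Each gene was represented by its same-strand transcript with the highest mean, and all 10 had one among the 33437 oocyte transcripts measured. Of these, 8 passed the filter on low values (at least 1 RPM, reads scaled to the mapped reads of the library, in at least 3 libraries) and were tested together with all 18179 transcripts that passed.

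An oocyte grows inside its follicle while it fills with maternal RNA and protein. SOHLH1, SOHLH2, LHX8, FIGLA and NOBOX form a network of DNA-binding factors that starts this growth and turns on genes for the zona pellucida and for secreted growth factors. Growing oocytes also replace part of the general transcription machinery: TBPL2, a paralog of the TATA-binding protein, works with TFIIA, whose large subunit comes from Gtf2a1, in place of the TFIID complex that holds TBP, and TAF4B is a germ cell paralog of the TFIID subunit TAF4. STAT3 is the factor that cytokine receptors activate through JAK kinases, and it was among the factors that together turned mouse stem cells into oocyte-like cells.

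RNA was sequenced from single germinal vesicle (GV) oocytes, fully grown and arrested before meiosis resumes, of 21-day-old females of strain C57BL6 (C57BL/6OlaHsd in the study's methods). Every female carried floxed alleles of Setd1b, whose product adds methyl groups to lysine 4 of histone H3. In Setd1b cKO (N = 4 libraries) the labels give Setd1b floxed/floxed with Gdf9-Cre, a transgene that deletes the floxed segment in oocytes once follicles begin to grow, and in Setd1b WT (N = 3) the same alleles without Cre. The methods of the study also count females with 1 deleted allele and Cre as WT, but the labels of these libraries give them as Cre negative. The deletion thus follows the formation of follicles, and the comparison is of GV oocytes, at the end of growth, not of the stage at which FIGLA, SOHLH1 or LHX8 are best known to act. Each library came from 1 oocyte, and nothing in the labels tells which oocytes came from one female, so p-values measure the spread between these oocytes. Since values are scaled to each library's reads, they do not give the amount of RNA in an oocyte.

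Libraries held 8582493 to 12972366 mapped reads, so that 1 read was 0.0771 to 0.117 RPM and 3 reads, taken as the floor, 0.231 to 0.350 RPM. The share of reads inside the measured transcripts was 83.6 to 86.8% in cKO and 90.1 to 90.4% in WT libraries. Of 12 oocyte marker genes 11 were in the table and all 11 were detected, with a summed level of 11942 to 14518 RPM in cKO and 16810 to 19818 RPM in WT, without overlap. Of 22 granulosa and theca cell markers 21 were in the table and 8 were tested. Their sum was 198 to 391 RPM in cKO and 247 to 412 RPM in WT, most of it from Esr2, Serpine2, Nr5a2 and Cyp19a1. Amh, Foxl2, Fst and Gatm were at 0 in every WT library and had 1 to 7 reads in 1 or 2 cKO libraries each. In the other direction, 1 marker had reads in WT but was at 0 in every cKO library. None of the 8 passed the threshold in limma (adjusted p under 0.05 and over 2-fold), which 3.76% of all transcripts passed as higher and 1.95% as lower. Of their log2 fold changes 5 were above and 3 below 0, and 2 had an unadjusted p under 0.05 (21.7% of all transcripts), Inha above (1.70, adjusted p = 0.225) and Esr2 below 0 (-0.77, adjusted p = 0.0421). Inha, a granulosa cell inhibin subunit, had 7.03, 11.4, 13.2 and 0.583 RPM in cKO and 0.810, 4.32 and 0 RPM in WT. Hsd3b1 and Hsd17b1, under the filter and picked out after their values were seen, reached 7.14 and 2.06 RPM in cKO and 0.842 and 0.486 RPM in WT. Both were at 0 in cKO replicate 4. Setd1b RNA was 8.31, 16.7, 12.8 and 2.68 RPM in cKO and 17.7, 16.3 and 8.61 RPM in WT, and a one-sided exact permutation test for a lower level gave p = 0.2. Its values include exons outside the floxed segment, so they do not check the genotype labels. The libraries of cKO replicate 4 and WT replicate 3 deviated from their groups in the same way (r = 0.61 across transcripts), and results are also given without both.

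Of the 8 factors tested, 1 passed the threshold, a Benjamini-Hochberg adjusted p under 0.05 in limma and a change over 2-fold. This was Stat3, which was higher in Setd1b cKO oocytes. None was lower. Over all transcripts tested 3.76% were called higher and 1.95% lower. At an unadjusted p under 0.05 there were 3 factors, Stat3 and Taf4b with higher and Tbpl2 with lower values in cKO, where 21.7% of all transcripts reached that p in either direction. With limma-voom on the reads recovered from the values, 1 factor was higher and 0 were lower, against 2.44% and 1.8% of all transcripts in that fit. Libraries of the 2 genotypes did not overlap for Stat3 and Taf4b, both higher in cKO, and for 0 factors with lower values. The same held for 13.2% and 7.14% of all transcripts. The 8 log2 fold changes were split into 4 above and 4 below 0, with a median of 0.03 against 0.12 for all transcripts.

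**Figure D1:**
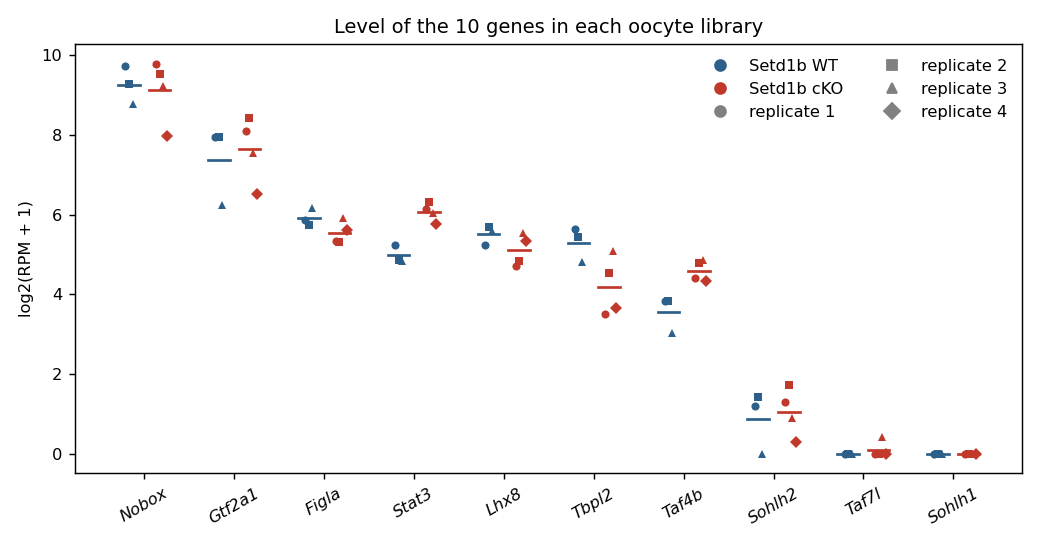
Levels of the 10 genes, ordered by mean, with genes on the x axis and log2(RPM + 1) on the y axis. Each symbol is 1 oocyte library, its shape gives the replicate and its colour the genotype, and lines are group means. Nobox lies highest, Sohlh1 and Taf7l lie at or near 0, and the genotypes separate for Stat3 and Taf4b.

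**Figure D2:**
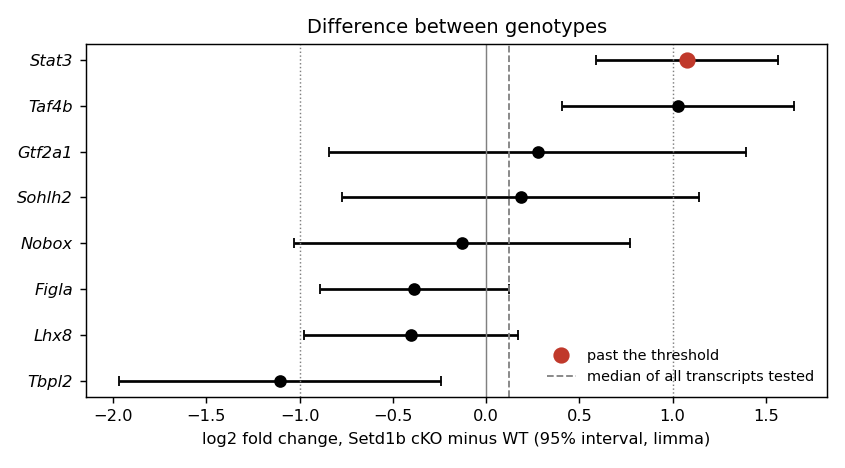
Log2 fold changes (Setd1b cKO minus WT, x axis) of the 8 genes tested, with 95% intervals from limma. Dotted lines mark 2-fold changes and the dashed line the median of all transcripts tested. Stat3, in red, is past the threshold, and the interval of Taf4b lies above and that of Tbpl2 below 0.

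The promoters of 3 of the genes are printed because they carry the ends of the pattern: Stat3, the gene that passed the threshold, Tbpl2, the lowest log2 fold change, and Nobox, the highest level. The windows run from 250 bases before to 50 after the RefSeq start (GRCm38.p6), 5′ to 3′ on the strand of the gene. Capitals mark E-boxes (CANNTG, which reads the same on both strands), the letters bound by basic helix-loop-helix proteins such as FIGLA, SOHLH1 and SOHLH2. They lie at chr11:100939491-100939790 (minus strand), chr2:24096546-24096845 (minus) and chr6:43309505-43309804 (minus).
Stat3: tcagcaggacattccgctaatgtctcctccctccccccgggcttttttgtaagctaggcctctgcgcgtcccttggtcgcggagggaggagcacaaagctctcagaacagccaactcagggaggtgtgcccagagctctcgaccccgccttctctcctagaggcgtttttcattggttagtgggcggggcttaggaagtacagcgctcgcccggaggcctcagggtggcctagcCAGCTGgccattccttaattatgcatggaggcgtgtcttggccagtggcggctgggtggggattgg
Tbpl2: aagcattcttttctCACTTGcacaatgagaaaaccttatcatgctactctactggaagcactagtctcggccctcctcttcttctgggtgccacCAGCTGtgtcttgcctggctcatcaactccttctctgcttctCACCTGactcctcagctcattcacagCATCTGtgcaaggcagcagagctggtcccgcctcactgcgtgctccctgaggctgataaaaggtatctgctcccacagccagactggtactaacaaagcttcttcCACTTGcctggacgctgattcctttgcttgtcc
Nobox: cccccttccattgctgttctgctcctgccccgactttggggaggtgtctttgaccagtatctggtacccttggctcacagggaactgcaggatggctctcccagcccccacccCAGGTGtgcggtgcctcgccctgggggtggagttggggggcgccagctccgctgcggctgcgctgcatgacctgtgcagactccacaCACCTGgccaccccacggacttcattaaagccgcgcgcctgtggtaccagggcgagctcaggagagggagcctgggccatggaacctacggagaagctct
Tbpl2 held 5 E-boxes, Nobox 2 and Stat3 1. Of 32851 mouse promoter windows 72.3% held at least 1, and 2.10% at least 5. Sohlh1 also held 5, Figla 4 and Lhx8 0.

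RefSeq windows were found for 9 of the 10 genes, with a pair for Gtf2a1. Lhx8 and Tbpl2 held 4 CpG dinucleotides each in 300 bases, whereas the other windows held 13 to 22. The median over all promoters was 7, with quartiles of 3 and 20. Searched on both strands, the letters TAATTG, a NOBOX motif, were in none of the windows and in 8% of all promoters. TAATTA, which many homeodomain proteins bind, was in the Stat3 window alone among these (5.29% of all), TGATTG, an LHX8 motif, in the Taf7l window alone (14.0%), and the letters TATAAA, which TBP binds, in the Taf7l window alone (13.6%). A match of letters does not show binding.

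Figla encodes a basic helix-loop-helix protein that turns on the zona pellucida genes. Its transcript held 39.3, 38.5, 59.3 and 48.2 RPM in cKO and 57.6, 52.9 and 70.4 RPM in WT libraries, a mean of 46.3 ± 9.72 (SD, n = 4) against 60.3 ± 9.04 (SD, n = 3). All cKO libraries but replicate 3 lay below every WT library, so that the groups overlapped in 1 library. The log2 fold change from limma was -0.38, with SE 0.23 and an adjusted p of 0.374. The transcript lies at chr6:86016157-86124404 (plus strand) and runs 103408 bp past the annotated end of Figla, over nearly the whole span of Add2, a gene for an adducin of the membrane skeleton, to which no transcript of its own was given. Reads of Figla and Add2 can therefore not be told apart in this value.

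Nobox encodes an oocyte homeodomain protein needed for growth beyond the primordial follicle, and it was the factor with the highest level. It held 884, 735, 598 and 250 RPM in cKO and 850, 614 and 436 RPM in WT (chr6:43302170-43310109, minus strand). Both groups spanned a wide range and overlapped, with their lowest values in cKO replicate 4 and WT replicate 3. The means were 617 ± 271 (SD, n = 4) and 633 ± 207 RPM (SD, n = 3), and limma gave a log2 fold change of -0.13 (SE 0.41, 95% interval -1.03 to 0.77, adjusted p = 0.90). An antisense transcript that overlaps 1548 bp of it had a mean of 10.02 RPM.

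Sohlh1 and Sohlh2 encode partner basic helix-loop-helix proteins that act in spermatogonia and in oocytes of primordial follicles. Sohlh1 (chr2:25842995-25847340, minus strand) had 0 reads in all 7 libraries, which allows a level of up to 0.350 RPM in the shallowest. Sohlh2 (chr3:55181818-55209957, plus strand) had 1.48, 2.31, 0.871 and 0.233 RPM in cKO, from 15, 28, 10 and 2 reads, and 1.30, 1.70 and 0 RPM in WT, from 16, 22 and 0 reads. The groups overlapped, with the highest library, replicate 2, in cKO and the lowest, replicate 3, in WT. The fitted difference, 0.18 on the log2 scale with SE 0.43 and a limma adjusted p of 0.862, rests on few reads and moved with the treatment of low values, to 0.74 with a pseudocount of 0.1 RPM and 1.002 with limma-voom.

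Lhx8 encodes a LIM-homeodomain protein needed for oocyte growth. Its level was 25.3, 27.4, 45.3 and 39.3 RPM in cKO and 36.8, 50.6 and 47.2 RPM in WT (chr3:154303721-154330167, minus strand). The lowest 2 libraries were cKO, and the other 2 cKO libraries lay within the WT range. The means were 34.3 ± 9.54 (SD, n = 4) and 44.9 ± 7.24 RPM (SD, n = 3), and limma gave a difference of -0.40 on the log2 scale, with SE 0.26 and an adjusted p of 0.415.

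Stat3 was the factor that rose. Its level was 69.6, 78.1, 64.3 and 53.2 RPM in cKO, from 457 to 948 reads, and 36.7, 28.3 and 27.6 RPM in WT, from 295 to 453 reads. Every cKO library lay above every WT library. The means of 66.3 ± 10.4 (SD, n = 4) and 30.9 ± 5.06 RPM (SD, n = 3) differed 2.15-fold, and limma gave a log2 fold change of 1.08 (SE 0.22, 95% interval 0.59 to 1.56, adjusted p = 0.0184). Of all transcripts tested 6.22% had a larger one. Stat3 also had a narrow spread: the highest library was 1.47 times the lowest in cKO and 1.33 times in WT, and 20.2% of 9503 transcripts with a mean of at least 8 RPM had a smaller SD within genotypes on the log2 scale.

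Stat3 is not particular to oocytes, and the part of other cells' RNA in its values was not tested. The change of Stat3 stood close to the 2-fold limit. After centring every library on the median transcript, which took the median log2 fold change of all transcripts from 0.12 to -0.03 and the share of higher among called transcripts from 65.8% to 46.3%, that of Stat3 was 0.92 with an adjusted p of 0.0308, past the p but not the fold limit. The call was also lost without cKO replicate 1 (adjusted p = 0.0565), cKO replicate 2 (log2 fold change 0.995, under 2-fold), cKO replicate 3 (adjusted p = 0.0543) or WT replicate 2 (adjusted p = 0.0940). Without both cKO replicate 4 and WT replicate 3 it was 1.10 with an adjusted p of 0.00449.

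The Stat3 transcript lies at chr11:100886810-100943288 (minus strand) and begins 3748 bp upstream of the start annotated in GENCODE, so the promoter printed above lies inside it, as that of Nobox and most of that of Tbpl2 lie inside their transcripts. The Stat3 transcript also stops inside the annotated gene, at -1712 bp from its end, and reads beyond that point are not in its value. Of 10806 named transcripts 10.6% began over 3000 bp upstream of theirs, and the median was 35 bp. Among the other factors the distance ran from -492 bp, inside the annotated gene, for Lhx8 to 555 bp for Nobox. The promoter windows follow RefSeq starts instead. That of Figla (chr6:86016941-86017240) lies wholly inside its transcript, and that of Lhx8 (chr3:154330511-154330810) wholly upstream of its transcript. Which start the reads of each genotype came from cannot be read from a value per transcript.

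Among 6720 other named transcripts with a mean of at least 8 RPM, those most like Stat3 over the 7 libraries were Ube2f, for an enzyme of neddylation (Pearson r = 0.988), Dtna, for a dystrobrevin (r = 0.988), and Gm15802 (r = 0.984). They share libraries and genotypes with Stat3, and since they were chosen for its pattern, their correlations and their log2 fold changes of 1.08, 1.96 and 1.02 are a description.

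The JAK and STAT list held the receptors, kinases, other STATs and inhibitors around STAT3. Of 25 genes 23 were in the table, 18 were tested and 0 passed the threshold in limma in either direction, with 5 at an unadjusted p under 0.05 and 0 by limma-voom. Over all transcripts limma called 3.76% higher and 1.95% lower and put 21.7% at that unadjusted p, and limma-voom called 2.44% and 1.8%. Their median log2 fold change was 0.20. The number past it was 1 without WT replicate 3 and with the replicate block, and 2 without both cKO replicate 4 and WT replicate 3 and with library quality weights. Stat4 had the lowest log2 fold change (-1.25, adjusted p = 0.102), with 13.2 to 24.2 RPM in cKO and 18.2 to 70.4 RPM in WT. The next was Ptpn6, a phosphatase that dampens JAK signalling, at -1.01 (adjusted p = 0.0934), with 1.4 to 3.37 RPM in cKO and 3.84 to 7.69 RPM in WT.

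Genotypes did not overlap for 4 of the 18 genes, 2 in each direction, against 13.2% (cKO higher) and 7.14% (cKO lower) of all transcripts, and all but Ptpn6 were named after their values were seen. Il6st, the shared receptor subunit gp130 upstream of STAT3, had 26.4 to 38.1 RPM in cKO and 19.1 to 22.7 RPM in WT, and Tyk2, a kinase, 2.96 to 4.43 and 1.13 to 1.93 RPM. Their log2 fold changes were 0.57 and 0.84 (adjusted p = 0.172 and 0.103). Stat6 and Ptpn6 did not overlap in the other direction, with log2 fold changes of -0.64 and -1.01. Lif, a cytokine that signals through gp130, was at 0 in every library.

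Tbpl2 encodes the TBP paralog that oocytes use for transcription initiation. It had 10.3, 22.3, 33.1 and 11.5 RPM in cKO and 48.8, 42.3 and 27.3 RPM in WT (chr2:24071367-24096806, minus strand). All but 1 cKO library, replicate 3, lay below every WT library. The means were 19.3 ± 10.7 (SD, n = 4) and 39.5 ± 11.0 RPM (SD, n = 3), and the log2 fold change was -1.10 (SE 0.39, 95% interval -1.97 to -0.24). It did not pass the threshold (limma unadjusted p = 0.0169, adjusted p = 0.126). Of all transcripts tested 2.72% had a lower value.

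Taf4b had higher values in cKO, 20.1, 26.4, 28.1 and 19.3 RPM, than in WT, 13.4, 13.3 and 7.11 RPM (chr18:14783197-14901640, plus strand). The groups did not overlap, with means of 23.5 ± 4.43 (SD, n = 4) and 11.3 ± 3.6 RPM (SD, n = 3). The log2 fold change of 1.03 (SE 0.28, 95% interval 0.41 to 1.65) missed the threshold with a limma adjusted p of 0.0578. It passed in 3 of 22 alternatives, among them without cKO replicate 4 (adjusted p = 0.0390) and when libraries were scaled to the reads inside transcripts (0.0407). In the other 19 it did not pass. Without WT replicate 3, its lowest library, the log2 fold change was 0.75 (adjusted p = 0.146).

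Gtf2a1 encodes the precursor that is cleaved into the large subunits of TFIIA. It had 275, 344, 187 and 90.1 RPM in cKO and 244, 248 and 74.2 RPM in WT (chr12:91555106-91590487, minus strand). The groups overlapped, although cKO replicates 1 and 2 lay above every WT library, and the lowest library of each genotype was again cKO replicate 4 and WT replicate 3. The log2 fold change was 0.28 (SE 0.51, 95% interval -0.84 to 1.39, limma adjusted p = 0.814), an interval that covers a 2-fold rise. Of 9503 transcripts 96.9% had a smaller SD within genotypes.

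Taf7l encodes a TFIID subunit of male germ cells. It had 4 reads, 0.348 RPM, in cKO replicate 3 and 0 reads in the other 6 libraries (chrX:134460118-134476490, minus strand). It was under the filter on low values and was not tested.

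**Figure D3:**
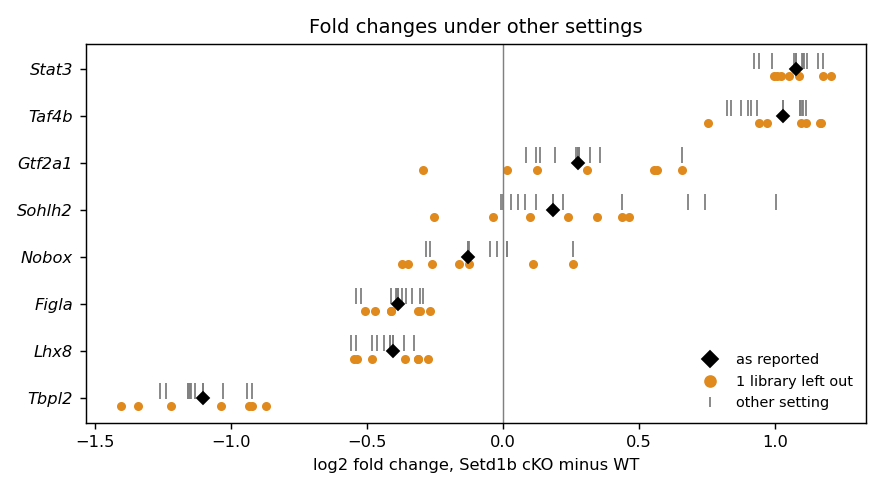
Log2 fold changes (x axis, Setd1b cKO minus WT) of the 8 genes tested, as reported (black diamonds), with 1 library left out (orange dots) and under the other settings (gray ticks). Stat3 and Taf4b stay above 0 and Tbpl2, Figla and Lhx8 below 0 at every setting, while Gtf2a1, Sohlh2 and Nobox fall on both sides.

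Over the 22 alternatives run for each, the log2 fold change was 0.92 to 1.20 for Stat3, 0.75 to 1.17 for Taf4b and -1.40 to -0.87 for Tbpl2. Those of Figla (-0.54 to -0.27) and Lhx8 (-0.56 to -0.28) also stayed below 0. The sign of Nobox, Sohlh2 and Gtf2a1 depended on the setting or on 1 library.

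Paralogs of these proteins, and the TFIIA gene Gtf2a2, stood near 0 in log2 fold change. Tbpl1, a further TBP paralog, had no transcript matched to it. Tbp had 132, 152, 109 and 59.0 RPM in cKO and 134, 101 and 69.0 RPM in WT (log2 fold change 0.12, limma adjusted p = 0.886). Taf4 had 12.4 to 17 and 12.3 to 17.9 RPM (-0.05, adjusted p = 0.935), and Taf7 300.3 to 454 and 333 to 384 RPM (-0.01, adjusted p = 0.988). Gtf2a1l, the germ cell paralog of Gtf2a1, had 74.8 to 186 and 93.1 to 135 RPM (0.07, adjusted p = 0.922), and Gtf2a2, for the small TFIIA subunit, 156 to 243 and 157 to 242 RPM (0.04, adjusted p = 0.949).

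The ratio of a factor to its paralog within a library does not depend on how libraries are scaled, and 3 such ratios were computed after the values above were seen. Tbpl2 to Tbp was 0.0779, 0.147, 0.303 and 0.196 in cKO and 0.363, 0.417 and 0.396 in WT. The WT ratios lay close together although Tbpl2 and Tbp each differed among WT libraries, and every cKO ratio was lower. The means were 0.181 ± 0.0947 (SD, n = 4) and 0.392 ± 0.0271 (SD, n = 3). Taf4b to Taf4 was 1.59, 1.90, 2.27 and 1.14 in cKO and 0.976, 1.09 and 0.398 in WT, higher in every cKO library, with means of 1.72 ± 0.482 (SD, n = 4) and 0.821 ± 0.370 (SD, n = 3). Two-sided exact permutation tests of the means gave p = 0.0571 for both of these ratios, 0.0857 after Benjamini-Hochberg adjustment over the 3 ratios, so neither passed. The smallest p that this design allows is 0.0286. Gtf2a1 to Gtf2a1l was 1.20 to 2.13 in cKO and 0.797 to 2.10 in WT (exact p = 0.743).

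**Figure D4:**
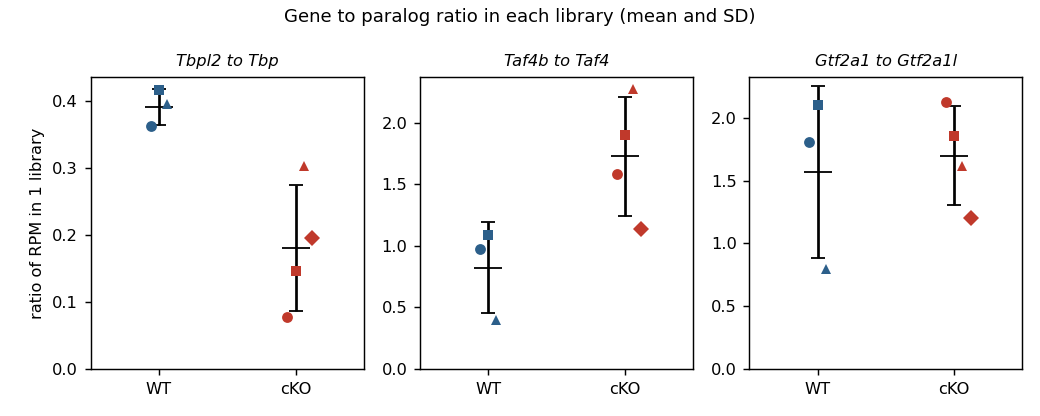
Ratio of the RPM of Tbpl2 to Tbp, Taf4b to Taf4 and Gtf2a1 to Gtf2a1l (y axes, linear, from 0) in each library of the 2 genotypes (x axes). Symbols are libraries, with shapes for replicates as in the plot of levels, and black marks give the mean and SD. The WT ratios of Tbpl2 to Tbp run from 0.363 to 0.417, above all cKO ratios.

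Levels per kilobase of annotated exon put the factors in an approximate order, since the transcripts counted did not have the annotated ends. Nobox ran 1504 bp and Lhx8 2573 bp past the annotated end, while Stat3 stopped inside the annotated gene, at -1712 bp. In WT, Nobox had 315 ± 103 RPM per kb, Gtf2a1 30.2 ± 15.9, Tbpl2 28.6 ± 7.98, Lhx8 17.7 ± 2.86, Stat3 3.24 ± 0.531, Taf4b 2.19 ± 0.700 and Sohlh2 0.422 ± 0.375 (SD, n = 3). The libraries of Nobox lay above those of every other factor, while the ranges of Gtf2a1 and Tbpl2 overlapped, as did those of Gtf2a1 and Lhx8 and those of Tbpl2 (19.8 to 35.4) and Lhx8 (14.5 to 20). Figla was left out of the order, since its transcript covers Add2. In cKO the means were 307 for Nobox, 35.9 for Gtf2a1, 14.0 for Tbpl2, 13.6 for Lhx8, 6.96 for Stat3, 4.56 for Taf4b and 0.518 RPM per kb for Sohlh2.

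The rest of the general transcription machinery was described with a list of 34 genes for TBP, TFIIA, TFIIB, TFIIE, TFIIF, TFIIH and TFIID subunits. All 33 in the table were tested and 0 passed the threshold in limma in either direction, with 4 at an unadjusted p under 0.05 and 0 by limma-voom, beside the same shares over all transcripts as for the JAK and STAT list. The median log2 fold change was 0.07. The 15 TFIID subunits had a median of 0.00067 and the 10 TFIIH subunits one of 0.16. The values furthest from 0 were those of Gtf2e1, a TFIIE subunit (-0.83, adjusted p = 0.139), with 1.73 to 4.01 RPM in cKO and 4.77 to 6.24 RPM in WT, and Gtf2h1, a TFIIH subunit (-0.62, adjusted p = 0.205), with 12.8 to 22.5 and 19.1 to 30.3 RPM. The highest log2 fold change, picked out after the values were seen, was that of Gtf2b, which encodes TFIIB (0.54, adjusted p = 0.142), with 735 to 878 and 510 to 597 RPM.

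Other transcription factors of oocyte growth and follicle activation, 16 genes of which 15 were tested, had 0 past the threshold in limma (3.76% of all transcripts higher, 1.95% lower) and by limma-voom, 2 at an unadjusted p under 0.05 (21.7% of all transcripts) and a median of 0.04. Dynll1 and Sub1 belong to the same stem cell conversion as Stat3. Dynll1, which encodes a dynein light chain, had 1225, 1252, 1968 and 2387 RPM in cKO and 731, 799 and 1346 RPM in WT, where cKO replicates 1 and 2 lay below WT replicate 3 (log2 fold change 0.83, adjusted p = 0.158). Sub1 stood at 0.03 (adjusted p = 0.972). Sall4 had the lowest value, -0.75 (adjusted p = 0.501), with 103 to 561 RPM in cKO and 248 to 752 RPM in WT.

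The genes that FIGLA, NOBOX, SOHLH1 or LHX8 are reported to regulate, 25 of a list of 27, were all tested. Of these, 0 rose and 3 fell, where 3.76% of all transcripts were called higher and 1.95% lower, and 23 of 25 had a log2 fold change below 0, with a median of -0.39 against 0.12 for all transcripts. The 3 that fell were Oosp3, for an oocyte-secreted protein, Mos, for the kinase that holds eggs in metaphase, and Nlrp4f, for an oocyte NLR protein. Oosp3 had 406, 315, 341 and 663 RPM in cKO and 926, 1089.5 and 1807 RPM in WT, a log2 fold change of -1.56 (adjusted p = 0.0180). Mos had 196, 204, 163 and 201 RPM against 551, 406 and 500.2 RPM, a log2 fold change of -1.34 (adjusted p = 0.0058). Nlrp4f had 312, 377, 300 and 318 RPM against 718, 687 and 607 RPM, a log2 fold change of -1.04 (adjusted p = 0.0139). In all 3 every cKO library lay below every WT library, as in 6 of the 25 genes and in 7.14% of all transcripts. The count was 1 without cKO replicate 3 or without WT replicate 2.

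Within this list the 3 zona pellucida genes had a median of -0.35 and the growth factor genes Gdf9 and Bmp15 with the receptor gene Kit one of -0.59, with 0 past the threshold in limma in each. Zp3, a FIGLA target that encodes a zona pellucida protein, had 3919, 3567, 3441 and 4234 RPM in cKO and 4743, 4769 and 4891 RPM in WT, without overlap (log2 fold change -0.35, adjusted p = 0.433). Gdf9, an oocyte growth factor whose promoter holds NOBOX sites and drives the Cre, had 1528 to 3119 and 2863 to 4963 RPM (-0.59, adjusted p = 0.317). The summed level of the 25 genes was 37031 to 39933 RPM in cKO and 47416 to 49946 RPM in WT. The oocyte markers, of which 9 of 11 are also on this list and so give no separate measure, moved in the same direction. So did the share of reads inside transcripts. Of these reads, the 100 most abundant transcripts of each library held 23.0 to 24.0% in cKO and 26.6 to 27.9% in WT. No median and no share below 0 was computed for transcripts as abundant as the listed genes. The part of these differences in the values of the list was not tested.

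**Figure D5:**
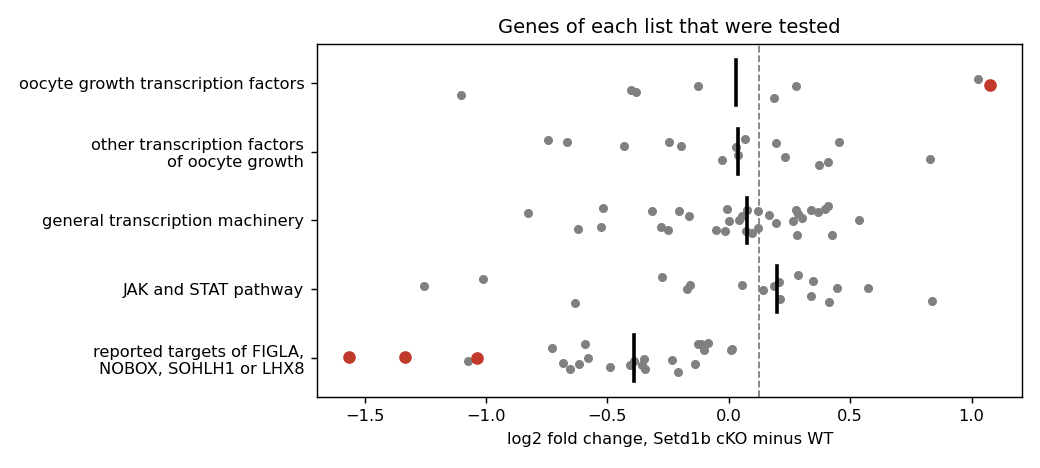
Log2 fold changes (x axis, Setd1b cKO minus WT) of the tested genes of 5 lists, 1 dot a gene, with random vertical shifts. Red dots are past the threshold, black bars are list medians and the dashed line is the median of all transcripts tested. Red dots are Stat3 in the top row and Oosp3, Mos and Nlrp4f in the bottom row, where 23 of 25 dots lie below 0.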

How the data were processed

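The authors collected single GV oocytes, 4 Setd1b cKO and 3 Setd1b WT libraries, made cDNA by SMARTer Ultra Low amplification, mapped reads with Hisat to GRCm38, removed hits of low mapping quality and counted reads in SeqMonk over oocyte transcripts with isoforms merged. Values were deposited as log2 RPM (reads per mapped total), which the authors computed per library with 0 reads set to 0.9 read. Division by what 1 read is worth returned whole reads (tolerance 0.02 read, or 2e-06 of the count for large counts) for every value above that floor. Whether counting used strand is not stated, and 33.5% of transcripts overlap another, so reads of overlapping and antisense transcripts are uncertain. The floor of 3 reads covers counting error only, and the 95% intervals of fold changes come from the spread between libraries.

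Each gene took its same-strand row of highest mean. Genes of other lists that no same-strand row was named for were matched by span to GENCODE M21 (overlap at least 0.5 of the union). Values were transformed to log2(RPM + 1), with 0 reads as 0 RPM, so fold changes of low genes are understated. Transcripts that reached 1 RPM in 3 or more libraries were compared between genotypes, with no covariate, by limma 3.58.1 (lmFit and trended eBayes; R 4.3.3), and p-values were adjusted by Benjamini-Hochberg over all transcripts tested. The fit was tested on simulated data. Single values were compared by exact permutation of the genotype labels (35 arrangements). Ratios and counts were computed in Python 3.11.15.

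The 10 genes and the lists were chosen with earlier results of these data known. Named were all 10 genes, Setd1b, Dynll1, Sub1 and the paralogs of the general factors with Gtf2a2, of each other list its members past the threshold (at most 5) or, with none, the 2 furthest from 0, and the 3 transcripts most like Stat3. Further genes were picked after their values were seen: Il6st, Tyk2, Stat6 and Lif of the JAK and STAT list, Zp3 and Gdf9 of the targets, Gtf2b and the granulosa genes. Alternatives were other pseudocounts, filters, scalings and limma settings, voom on the recovered reads, a replicate block and each library left out. Leaving out cKO replicate 4 and WT replicate 3 together, naming by the table alone and the paralog ratios were added after the data were seen. Replicate numbers did not pair the samples.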

Additional observations from a re-analysis of the deposited data

Results flagged for a closer look

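In Setd1b cKO replicate 3, Taf7l had 0.348 RPM, from 4 reads, and 0 RPM in the other 3 cKO libraries, so the gap to the nearest of them made up the whole range of the group (ratio 1, past Dixon's 95% limit for 4 samples). This was 1 of 18 genes examined for a cKO library standing apart, and chance flags about 1 group in 20.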

How the results depend on the processing

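The number of factors past the threshold with higher values, 1 in the report, was 0 with a pseudocount of 5 RPM, without a filter on low values, with each library centred on its median gene and with median-of-ratios scaling. It was 2, Stat3 and Taf4b, when libraries were scaled by the reads within transcripts and with the replicate block, and 0 to 2 with 1 library left out. Stat3 lost the threshold in 8 of 22 alternatives, in 4 of them by fold alone, and its adjusted p ran from 0.0033 to 0.0940. Taf4b passed in 3 (adjusted p 0.0282 to 0.153 over all), and Tbpl2 in none (0.0501 to 0.351). The number with lower values was 0 in all 22. The genes past the threshold in the other 4 lists, 3 in the report, were 6 with library quality weights, 5 with the replicate block, 5 without cKO replicate 4 and WT replicate 3 together, and 1 to 4 with 1 library left out. The log2 fold change of Nobox turned positive with library quality weights (0.015), with the replicate block (0.26) and without cKO replicate 4 and WT replicate 3 together (0.014), and ran from -0.37 to 0.26 with 1 library left out. That of Sohlh2 turned negative with quantile normalisation (-0.0096) and without those 2 libraries together (-0.00097), ran from -0.25 to 0.46 with 1 library left out and stood at 0.74 with a pseudocount of 0.1 RPM and 1.002 with limma-voom. That of Gtf2a1 ran from -0.30 to 0.66 with 1 library left out. The cause was not tested. Over all transcripts 683 were higher and 355 lower, against 171 and 109 without WT replicate 2, 238 and 134 without WT replicate 1, 174 and 129 without a filter, 443 and 328 with limma-voom, and 1197 and 554 with library quality weights. Replicate numbers did not pair the samples (correlations of same-numbered deviations 0.19, 0.29 and -0.13), and the block leaves cKO replicate 4 without a partner. With 3 to 4 oocytes a genotype the 95% intervals of Nobox and Gtf2a1 spanned about 2-fold in each direction, and the reads of Sohlh1, Sohlh2 and Taf7l allowed no statement on a difference.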
